A study of Homo sapiens with 9 samples.

Results

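Glycogen is the branched polymer in which cells store glucose, and 9 genes of its synthesis and breakdown were followed in Ramos cells given a GSK-3 inhibitor. The set holds 5 genes of synthesis (GYS1, GYG1, GBE1, UGP2 and PGM1), the phosphorylases PYGB and PYGL, and 2 genes of glycogen-bound phosphatases (EPM2A and PPP1R3D). They were chosen by function, as the rows of the gene count table whose Ensembl identifiers carry these symbols. All 9 were found among the 60234 identifiers of the table, and all 9 were among the 15847 genes with enough reads to test. Ramos is an established human B cell line derived from an EBV-negative Burkitt lymphoma. CHIR99021 is a small-molecule inhibitor of both GSK-3 kinases. Cells were left untreated (0 h) or were given 3 µM CHIR99021 for 3 h or for 6 h, with 3 libraries in each of the 3 groups. Every library comes from this 1 line, and every treated library received the same dose. The untreated libraries are of 0 h only, so exposure to the compound and time in culture cannot be told apart. The libraries hold RNA from whole cultures, in which fewer cells of a kind and less RNA per cell cannot be told apart.

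Glycogen is built on glycogenin, a protein that attaches the opening glucose residues to itself. Phosphoglucomutase and UDP-glucose pyrophosphorylase turn glucose 6-phosphate into UDP-glucose, glycogen synthase adds its glucose to the growing chain, and the branching enzyme makes the side branches. Glycogen phosphorylase releases glucose 1-phosphate from the chain ends. GSK-3 takes its name from this pathway, since it phosphorylates glycogen synthase and so holds it in a less active state. A GSK-3 inhibitor is known to activate the synthase protein through its phosphorylation, which RNA levels do not measure.

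The libraries held 46359911 to 52880876 reads assigned to genes. Levels are given as CPM, the count scaled to a fixed library total, after scaling by the trimmed mean of M values (TMM) so that the typical gene is level between libraries. The mean scaling factor was 1.107 in the untreated group, 0.962 at 3 h and 0.94 at 6 h, so directions of small changes depend on it. The summed level of 8 B cell markers lay between 2586 and 2827 CPM in all libraries. That sum covers markers whose own levels differed between the groups, such as PAX5 with a mean of 409 CPM at 0 h and 255 CPM at 6 h and MS4A1 with 268 and 520 CPM. Marker lists of T and NK cells, myeloid cells, epithelial cells and fibroblasts, and muscle and liver each summed to no more than 0.2147 CPM in any library, and none of their genes had enough reads to test. The labels call the libraries of a group biological replicates.

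Stretches of the promoter windows of 5 of these genes are shown because they carry the motifs that the genes share or do not share. RefSeq promoter windows (GRCh38.p14, from 250 bases before to 50 bases after an annotated start) matched all 9 genes, with 13 windows in all. A match of letters on either strand is a description of the window and was not tested as a site. The palindrome CACGTG, the E-box to which MYC and related factors bind, lay in the windows of 3 genes. By window it was in 3 of the 13, against 7.26% of all 35116 windows. In the following lines each sequence runs 5′ to 3′ on the strand of its gene, with the E-box in capitals.
GYG1, chr3:148991485-148991514, plus strand: agcgtgcgcggcCACGTGacggccgctata
EPM2A, chr6:145735608-145735637, minus strand: ggcgcagaacagCACGTGttctccccggtg
PPP1R3D, chr20:59940497-59940526, minus strand: gactgcagcggaCACGTGacgaggctgcca
The E-box began 43 bases upstream of the annotated start in GYG1, 105 bases upstream in EPM2A and 209 bases upstream in PPP1R3D. In the GENCODE annotation these stretches overlap exons: that of GYG1 an exon of GYG1 itself, that of EPM2A exons of EPM2A and AL023806.1, and that of PPP1R3D an exon of FAM217B, which is read from the other strand.

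The GC box GGGCGG, a common element of promoters without a TATA box, was in at least 1 window of all 9 genes and in 11 of their 13 windows, against 45% of all windows. The core CTTTGAT, recognised by the TCF/LEF factors of the Wnt pathway, was in none of the 13 windows and in 2.62% of all windows. The heat shock unit GAANNTTC was also in none of the 13 windows, against 6.77% of all windows. The stretches upstream of GYS1 and PYGB are shown because the RNAs of these genes moved in opposite directions after 3 h. Capitals mark GGGCGG or, where it is on the other strand, CCGCCC.
GYS1, chr19:48993311-48993447, minus strand: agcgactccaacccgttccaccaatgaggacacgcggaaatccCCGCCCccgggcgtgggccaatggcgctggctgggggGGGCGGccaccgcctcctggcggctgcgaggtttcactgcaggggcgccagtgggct
PYGB, chr20:25247929-25248068, plus strand: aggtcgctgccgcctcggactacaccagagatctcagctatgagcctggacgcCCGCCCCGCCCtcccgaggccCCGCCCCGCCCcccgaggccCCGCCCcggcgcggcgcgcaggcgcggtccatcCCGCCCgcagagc
The whole PYGB window held 6 GC boxes, some of which overlap, and the whole GYS1 window held 3. The window of PYGL, which rose, also held 3. Those of GBE1, which rose, and PPP1R3D, which fell, each held 2. A link between the number of GC boxes and the direction of change was not tested. GC content was 69.3% in the GYS1 window and 75.7% in the PYGB window. The GYS1 stretch is the exon-free gap between GYS1 and RUVBL2, whose starts face away from each other.

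After 3 h, 5 of the 9 genes had risen (PYGB, PYGL, GBE1, UGP2 and EPM2A), 2 had fallen (GYS1 and PPP1R3D), and GYG1 and PGM1 did not pass the test. A gene passed where edgeR's quasi-likelihood test gave a p-value, adjusted by Benjamini-Hochberg over all genes tested, under 0.05. The 7 genes that passed are 77.8% of the set, and 66.3% of all genes tested passed in the same comparison (32.8% higher and 33.5% lower). After 6 h, 6 genes were higher than at 0 h, GYS1 and PPP1R3D were lower, and PGM1 did not pass. Those 8 genes are 88.9% of the set, against 70.8% of all genes (35.7% higher and 35.0% lower). Between 3 h and 6 h, 4 genes rose (GYS1, GYG1, GBE1 and PYGL), PYGB fell and 4 did not pass, which makes 55.6% of the set against 43.4% of all genes (21.5% higher and 21.9% lower). A difference among the 3 times in either direction was found for 8 of the 9 genes and for 77.7% of all genes.

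The 9 genes did not move as a block, and most of their changes were of ordinary size for these libraries. Their median log2 fold change was 0.24 at 3 h, where that of all genes was -0.01, and 0.33 at 6 h, where that of all genes was 0.02. Without regard to direction, the median size of the change was 0.47 for the set and 0.42 for all genes at 3 h. At 6 h it was 0.44 for the set and 0.48 for all genes. PYGL at 6 h was the farthest out, with 6.98% of all genes changing by more. PYGB at 3 h had 15.2% of all genes beyond it, and GBE1 at 6 h had 17.3%.

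**Figure D1:**
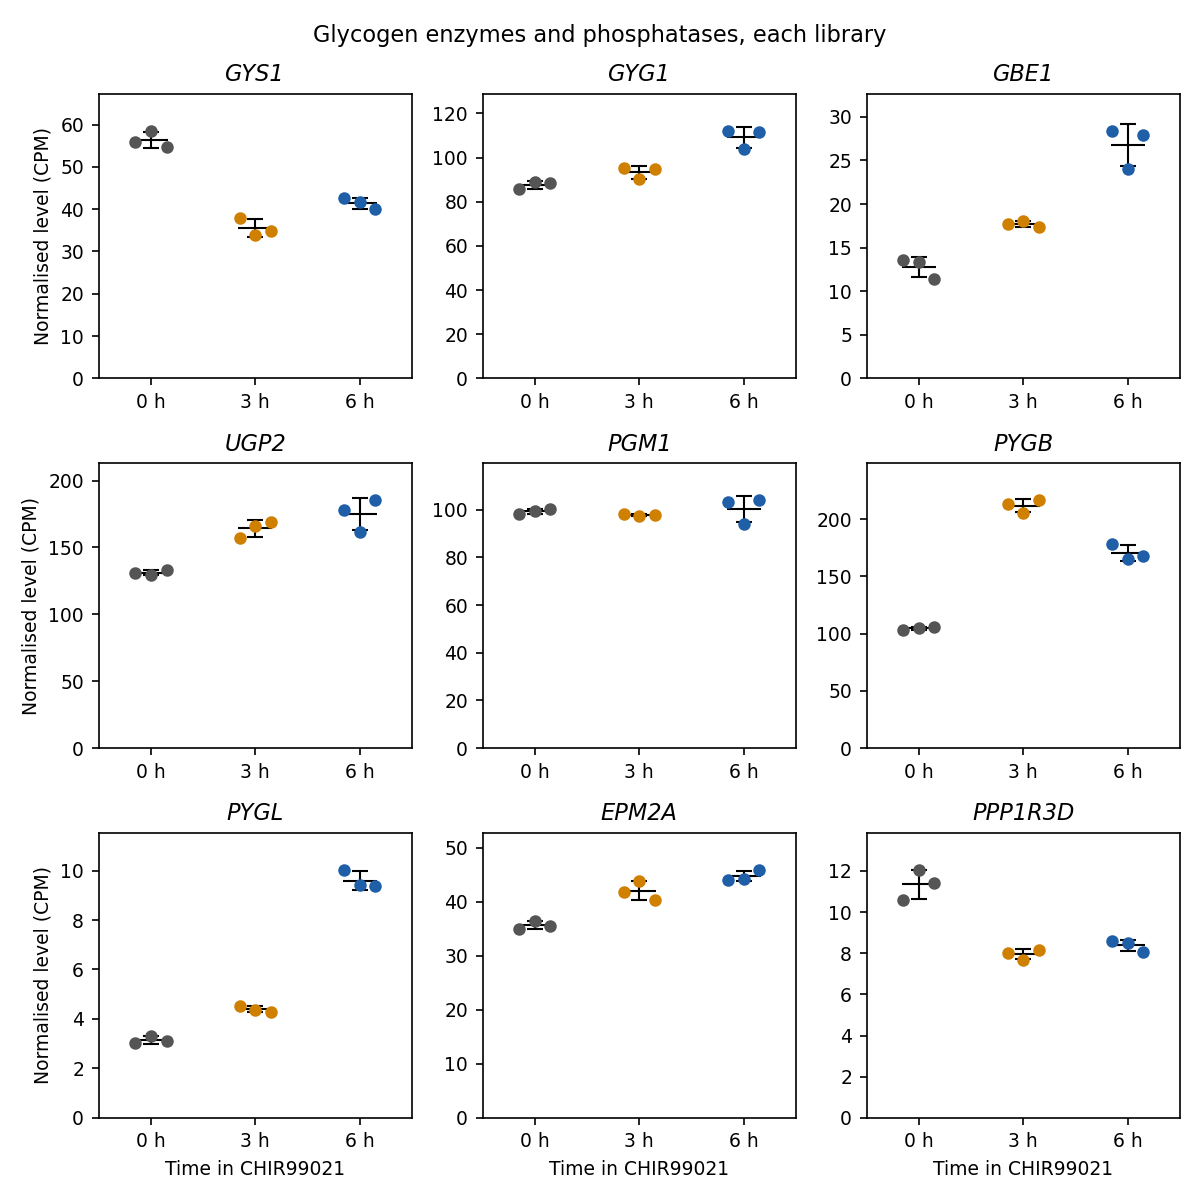
Normalised level in CPM (vertical axes, each from 0) of the 9 genes at 0 h, 3 h and 6 h of CHIR99021. Each point is 1 library, and the bar and whiskers are the mean and SD of 3 libraries. PYGB and GYS1 are farthest from their untreated levels at 3 h, while PYGL and GBE1 climb further by 6 h.

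GYS1 (ENSG00000104812) encodes the glycogen synthase of muscle and most other tissues, the enzyme from which GSK-3 has its name. Its level was 55.9, 58.6 and 54.8 CPM in the untreated libraries, 38.0, 33.9 and 34.8 CPM after 3 h, and 42.6, 41.6 and 40.1 CPM after 6 h. Every treated library was below every untreated one, and the 6 h libraries lay between the other groups without overlap. The means were 56.4 ± 1.95, 35.5 ± 2.15 and 41.4 ± 1.30 CPM (SD, n = 3 each). The log2 fold change against 0 h was -0.67 (SE 0.0558, adjusted p = 1.28e-07) at 3 h and -0.45 (SE 0.0556, adjusted p = 6.13e-06) at 6 h. Between 3 h and 6 h GYS1 rose by 0.22 on the log2 scale (adjusted p = 0.00594). In size these changes were not unusual, since 31% of all genes changed by more at 3 h and 52.5% at 6 h.

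GBE1 (ENSG00000114480) encodes the branching enzyme and rose at both times. It was at 13.6, 13.3 and 11.4 CPM at 0 h, at 17.7, 18.1 and 17.4 CPM at 3 h, and at 28.4, 24.0 and 27.9 CPM at 6 h. The 3 groups formed separate steps, each above the one before. Its change against 0 h was 0.47 in log2 (SE 0.0812, adjusted p = 0.00016) at 3 h and 1.07 (SE 0.0804, adjusted p = 3.45e-08) at 6 h, which is 2.09-fold. The further rise from 3 h to 6 h was 0.60 (adjusted p = 4.71e-05), and 14.1% of all genes changed by more over that interval.

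UGP2 (ENSG00000169764) encodes UDP-glucose pyrophosphorylase, which makes the glucose donor of the synthase. It was at 131, 130 and 133 CPM at 0 h, at 157, 166 and 169 CPM at 3 h, and at 178, 162 and 185 CPM at 6 h. All treated libraries were above all untreated ones, while the 3 h and 6 h libraries overlapped. UGP2 was higher by 0.32 in log2 at 3 h (adjusted p = 0.000138) and by 0.41 at 6 h (adjusted p = 1.18e-05). The difference of 0.09 between 6 h and 3 h did not pass (adjusted p = 0.206), but without 6 h replicate 10, the lowest library of its group, it was 0.14 and passed (adjusted p = 0.0373).

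GYG1 (ENSG00000163754) encodes glycogenin-1, the protein on which a glycogen particle starts, and its rise came at 6 h. It was at 85.6, 89.0 and 88.6 CPM at 0 h, at 95.5, 90.1 and 94.7 CPM at 3 h, and at 112, 104 and 112 CPM at 6 h. The 3 h libraries lay just above the untreated ones, and the 6 h libraries lay above both groups. The log2 fold change was 0.09 at 3 h, which did not pass (adjusted p = 0.125), 0.32 at 6 h (adjusted p = 5.9e-05), and 0.23 from 3 h to 6 h (adjusted p = 0.00238). Scaled by library size alone, GYG1 was lower at 3 h by a log2 fold change of -0.11 (adjusted p = 0.0337) and did not pass at 6 h (0.08, adjusted p = 0.115). The table also lists 3 pseudogenes of GYG1. Reads aligned to more than 1 place were a separate entry, 9.895% to 11.67% of all entries per library, and were left out. Reads that align equally to GYG1 and a copy would be among them, and how many they were is not known.

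PGM1 (ENSG00000079739) encodes phosphoglucomutase, which interconverts glucose 1-phosphate and glucose 6-phosphate and so serves both directions of the pathway. It was at 98.3, 99.4 and 100.4 CPM at 0 h, at 98.3, 97.3 and 97.6 CPM at 3 h, and at 103, 93.8 and 104 CPM at 6 h. The 3 h libraries lay just under the untreated ones, and the 6 h libraries spanned them. Fitted log2 changes were -0.02 (SE 0.0497, adjusted p = 0.679) at 3 h and 0.01 (SE 0.0497, adjusted p = 0.827) at 6 h. PGM1 was the only gene of the 9 that did not pass the test for a difference among the 3 times (adjusted p = 0.768). Scaled by library size alone it was lower at both times (-0.23, adjusted p = 0.000413, and -0.22, adjusted p = 0.000415), where the median of all genes also moved to -0.22 at both times. With upper-quartile scaling PGM1 also passed as lower at 3 h (-0.18, adjusted p = 0.00347) and 6 h (-0.13, adjusted p = 0.0165). There the median of all genes moved to -0.17 at 3 h and -0.13 at 6 h.

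PYGB (ENSG00000100994), the brain-type glycogen phosphorylase, was the phosphorylase with most reads in Ramos cells, and it had the largest change of the 9 genes at 3 h. It was at 103, 105 and 105 CPM at 0 h, at 213, 205 and 216 CPM at 3 h, and at 178, 165 and 168 CPM at 6 h. The treated libraries were all far above the untreated ones, with 3 h the highest group. Against 0 h the log2 fold change was 1.02 (SE 0.0478, adjusted p = 4.6e-10) at 3 h, a 2.03-fold rise, and 0.70 (SE 0.0477, adjusted p = 1.12e-08) at 6 h. PYGB fell by 0.31 on the log2 scale from 3 h to 6 h (adjusted p = 0.00013) and stayed above the untreated level.

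PYGL (ENSG00000100504), the liver-type phosphorylase, started low and had the largest change of the 9 genes at 6 h. It was at 3.02, 3.32 and 3.11 CPM at 0 h, at 4.53, 4.35 and 4.29 CPM at 3 h, and at 10.0, 9.41 and 9.37 CPM at 6 h. These levels rest on 168 to 193 reads per untreated library and on 406 to 471 reads per library at 6 h. The 3 groups were separate and in order of time. PYGL rose by 0.48 in log2 (SE 0.0842, adjusted p = 0.000194) at 3 h and by 1.61 (SE 0.0794, adjusted p = 5.07e-10) at 6 h, a 3.04-fold rise. From 3 h to 6 h PYGL rose by 1.13 (adjusted p = 1.37e-07), and 3.12% of all genes changed by more over that interval.

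EPM2A (ENSG00000112425) encodes laforin, a phosphatase that removes phosphate from glycogen itself and whose loss causes Lafora disease. It was at 35.0, 36.4 and 35.4 CPM at 0 h, at 41.8, 43.9 and 40.4 CPM at 3 h, and at 44.1, 44.3 and 45.8 CPM at 6 h. The groups were separate, with 6 h just above 3 h. Relative to 0 h it rose by 0.24 in log2 (SE 0.0501, adjusted p = 0.000821) at 3 h and by 0.33 (SE 0.0502, adjusted p = 4.44e-05) at 6 h, and the difference between them did not pass (0.09, adjusted p = 0.165). EPM2A did not pass at 3 h with upper-quartile scaling (0.08, adjusted p = 0.144), nor at either time by library size alone (0.04, adjusted p = 0.534, and 0.09, adjusted p = 0.109).

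PPP1R3D (ENSG00000132825) encodes a subunit that brings protein phosphatase 1 to glycogen, where the phosphatase acts on the synthase and the phosphorylase. It was at 10.6, 12.04 and 11.4 CPM at 0 h, at 8.02, 7.69 and 8.15 CPM at 3 h, and at 8.59, 8.49 and 8.07 CPM at 6 h. All treated libraries lay below all untreated ones, and the 3 h and 6 h libraries overlapped. The log2 fold change was -0.51 (SE 0.0713, adjusted p = 2.1e-05) at 3 h and -0.44 (SE 0.0715, adjusted p = 8.41e-05) at 6 h, with no passing difference between them (0.08, adjusted p = 0.429).

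**Figure D2:**
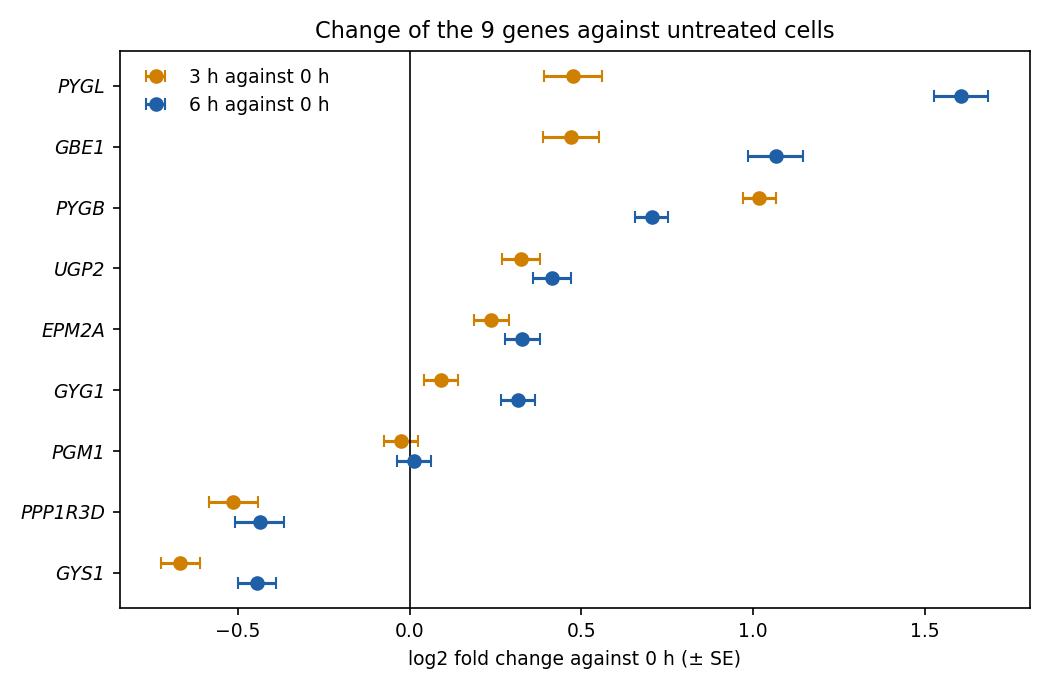
Log2 fold change against 0 h (horizontal axis) with its SE for the 9 genes, in order of the change at 6 h. Points at 3 h and 6 h are fitted from 3 libraries a group. PYGL reaches 1.61 at 6 h, PYGB is higher at 3 h than at 6 h, PGM1 sits at 0, and GYS1 and PPP1R3D lie to the left at both times.

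The times of the largest level differed between the genes. GYS1 was lowest at 3 h and PYGB highest at 3 h, and both had moved part of the way back by 6 h. GBE1, GYG1 and PYGL were each higher at 6 h than at 3 h by the test. Groups did not overlap for all 9 genes between 3 h and 0 h, where the same held for 70.2% of all genes. They did not overlap for 8 genes between 6 h and 0 h (71.7% of all genes) and for 6 genes between 6 h and 3 h (55.2% of all genes).

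Opposite movements of genes within the same libraries can be read as ratios, which do not depend on how libraries are scaled. Levels were divided by the length of the gene's annotated exons for this purpose. The ratio of GYS1 to the sum of PYGB and PYGL was 0.556, 0.571 and 0.533 at 0 h, 0.184, 0.171 and 0.166 at 3 h, and 0.239, 0.253 and 0.239 at 6 h. Synthase RNA thus stood at a lower level per phosphorylase RNA in every treated library than in any untreated one, with 3 h the lowest. The ratio of GBE1 to GYS1 was 0.200, 0.187 and 0.171 at 0 h, 0.382, 0.438 and 0.410 at 3 h, and 0.547, 0.473 and 0.572 at 6 h. Branching enzyme RNA was therefore higher per synthase RNA at each later time, without overlap. Both ratios combine genes whose changes are given above, so they describe those changes and carry no test of their own.

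The make-up of the phosphorylase RNA also differed between the times. PYGL was 2.66%, 2.86% and 2.68% of the sum of PYGB and PYGL per length at 0 h, 1.94%, 1.94% and 1.82% at 3 h, and 4.98%, 5.06% and 4.95% at 6 h. The share was lowest at 3 h, when the log2 changes were 1.02 for PYGB and 0.48 for PYGL, and highest at 6 h. With the length of the longest coding transcript in place of all exons, the mean shares were 3.93%, 2.74% and 7.11%, in the same order.

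**Figure D3:**
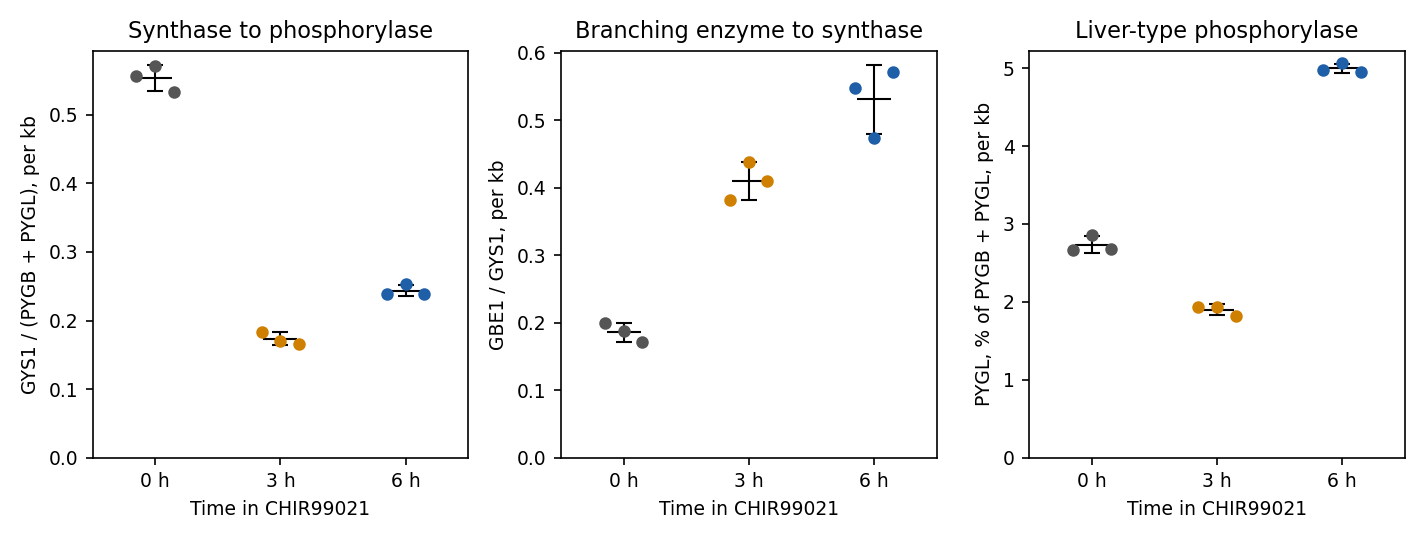
Ratios of length-corrected levels (vertical axes, from 0) in each library at 0 h, 3 h and 6 h, with mean and SD of 3 libraries. Mean synthase to phosphorylase is 0.554, 0.174 and 0.244, mean branching enzyme to synthase is 0.186, 0.410 and 0.531, and the PYGL share is lowest at 3 h.

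Compared per kilobase of annotated exon, the untreated cells held most RNA for the enzymes that start and feed synthesis and for PYGB. GYG1 stood at 25.0 ± 0.533, PGM1 at 23.6 ± 0.249, PYGB at 23.3 ± 0.276 and UGP2 at 20.2 ± 0.274 CPM per kb (SD, n = 3 each). PGM1 and PYGB overlapped, and the other neighbours in that order did not. GYS1 followed at 13.3 ± 0.460 CPM per kb, then PPP1R3D at 3.13 ± 0.197, GBE1 at 2.47 ± 0.232, EPM2A at 1.91 ± 0.0392 and PYGL at 0.657 ± 0.0315 CPM per kb. The order in the middle depends on the transcript assumed, since EPM2A has 18617 annotated exon bases but 3465 in its longest coding transcript. With longest coding transcripts UGP2 led at 56.1 ± 0.762 CPM per kb and EPM2A, at 10.3 ± 0.211, was above GBE1 and PPP1R3D. Per kilobase of exon, PYGB led the set at 3 h with 47.3 ± 1.29 and at 6 h with 38.0 ± 1.60 CPM per kb, and PYGL was the lowest with 0.914 ± 0.0258 and 2.00 ± 0.0760. With longest coding transcripts UGP2 led at both times, at 70.3 ± 2.67 and 74.8 ± 5.18 CPM per kb, and PYGB was at 51.2 ± 1.40 and 41.2 ± 1.74. By that length PYGL was still the lowest at 3 h, at 1.44 ± 0.0406, but at 6 h, at 3.15 ± 0.120, it was above PPP1R3D at 2.31 ± 0.0759 CPM per kb.

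Of the forms of these enzymes that belong to other tissues, 2 were near or under the limit of detection and PYGM was low but measured. GYG2, the liver form of glycogenin, had no read in any library, which allows levels up to 0.0516 to 0.0692 CPM depending on the library (3 reads, counting error only). GYS2, the liver form of the synthase, had 0 to 8 reads per library and was not tested. PYGM, the muscle phosphorylase, had 22 to 39 reads per library and was at 0.639 ± 0.0785 CPM at 0 h, 0.5995 ± 0.0179 CPM at 3 h and 0.587 ± 0.0750 CPM at 6 h. Its difference from 0 h did not pass at 3 h (-0.09, adjusted p = 0.724) or at 6 h (-0.12, adjusted p = 0.636).

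Some of the 9 genes lie close to others, and the sources used here do not say whether reads were counted by strand. PPP1R3D shares 123 exon bases, 3.39% of its exons, with FAM217B on the opposite strand. FAM217B moved the other way: 37.4, 32.9 and 28.7 CPM at 0 h, 90.8, 92.2 and 90.8 CPM at 3 h, and 80.5, 80.5 and 83.1 CPM at 6 h. Its log2 fold change was 1.47 (adjusted p = 1.02e-09) at 3 h and 1.30 (adjusted p = 2.17e-09) at 6 h. PGM1 shares 197 exon bases (4.68%) with ITGB3BP on the other strand, which was at 41.8 CPM at 0 h and 29.7 CPM at 6 h (-0.49, adjusted p = 3.41e-06). RUVBL2, which starts 138 bases from GYS1 on the other strand, was at 162, 165 and 178 CPM at 0 h and at 247, 222 and 227 CPM at 6 h. RUVBL2 was thus higher at 6 h (0.46, adjusted p = 6.31e-06) where GYS1 was lower. These neighbours were picked after their values had been seen. If reads were counted without strand, reads from shared exon bases could not be assigned to either gene.

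By the rule of the smallest root mean square difference of log2 CPM, centred on 0 h, over the 9 libraries and 12172 candidate genes, the genes most like GYS1 were ELMOD3 (0.0511), AGPAT1 (0.0547) and RNF214 (0.0566). Their log2 fold changes at 3 h were -0.72, -0.62 and -0.67, and at 6 h -0.46, -0.43 and -0.48. The genes most like PYGL were SAFB2 (0.0685), SCFD2 (0.0794) and PRKAR1B (0.103), with log2 fold changes of 0.57, 0.54 and 0.56 at 3 h and 1.54, 1.52 and 1.48 at 6 h. None of these 6 belongs to the glycogen pathway lists.

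A wider list of 53 other genes of glycogen and UDP-glucose metabolism held 43 with enough reads to test. After 3 h, 17 were higher, 15 were lower and 11 did not pass, so 74.4% passed, against 66.3% of all genes. After 6 h, 20 were higher, 13 were lower and 10 did not pass, so 76.7% passed, against 70.8% of all genes. The median log2 fold change of the 43 was 0.04 at 3 h and 0.11 at 6 h. The wider list, like the 9 genes, had no common direction.

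On the side of breakdown, GAA, the acid glucosidase that degrades glycogen in lysosomes, fell at both times. It was at 13.5, 14.7 and 14.1 CPM at 0 h, 10.8, 9.87 and 10.4 CPM at 3 h, and 4.85, 4.64 and 4.45 CPM at 6 h. Its log2 fold change was -0.45 (adjusted p = 5e-05) at 3 h and -1.60 (adjusted p = 2.67e-10) at 6 h, opposite in direction to PYGL and GBE1. Of 4 tested subunit genes of phosphorylase kinase, which activates phosphorylase, 1 was higher at 3 h and 3 did not pass, and at 6 h 1 was higher, 1 was lower and 2 did not pass. That is 25% and 50% of the 4, against 66.3% and 70.8% of all genes. The gene that was higher was the same at both times and had few reads, 23 to 32 per library at 0 h and 40 to 47 at 6 h. It shares 14% of its exon bases with a gene on the opposite strand.

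Of 6 other tested subunits of protein phosphatase 1, catalytic or directing it to glycogen, 3 were higher and 3 lower at 3 h, and 3 were higher and 1 lower at 6 h. All 6 (100%) and then 66.7% passed, against 66.3% and 70.8% of all genes. PPP1R3B, the form best known from liver, was at 16.2, 16.5 and 13.6 CPM at 0 h, 30.5, 31.2 and 32.6 CPM at 3 h, and 16.7, 17.8 and 18.1 CPM at 6 h. Its rise at 3 h was 1.03 (adjusted p = 2.55e-08), as large as that of PYGB, and it fell by 0.84 from 3 h to 6 h (adjusted p = 1.17e-06). At 6 h PPP1R3B was 0.19 above 0 h (adjusted p = 0.0399), and this call was lost without 0 h replicate 3 (0.10, adjusted p = 0.16), without either of 3 h replicates 5 and 6, and without either of 6 h replicates 10 and 11. The call was also lost with DESeq2 (adjusted p = 0.0557), a filter at 1 CPM (adjusted p = 0.0974) and the compared groups alone (adjusted p = 0.129). With upper-quartile scaling the value was 0.04 (adjusted p = 0.64), and by library size alone it was -0.05. PPP1R3E fell by 1.06 at 3 h (adjusted p = 2.09e-08) and by 0.77 at 6 h (adjusted p = 3.8e-07). PPP1R3F fell by 0.84 at 3 h (adjusted p = 1.96e-07) and was -0.15 from 0 h at 6 h (adjusted p = 0.0727). At 6 h PPP1R3F passed as lower with upper-quartile scaling (-0.30, adjusted p = 0.00152), by library size alone (-0.39, adjusted p = 0.00018), with a filter at 1 CPM (-0.19, adjusted p = 0.0211) and with the compared groups alone (-0.18, adjusted p = 0.0435).

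The catalytic subunits of protein phosphatase 1 also differed among themselves. PPP1CB was higher at 3 h (0.49, adjusted p = 9.29e-07) and 6 h (0.30, adjusted p = 9.43e-05), the latter not by library size alone (0.07, adjusted p = 0.189). PPP1CC fell by 0.41 at 3 h (adjusted p = 2.8e-06) and was at 0.01 at 6 h (adjusted p = 0.902), a value that was -0.14 with upper-quartile scaling and -0.23 by library size alone. PPP1CA was 0.31 higher at 6 h (adjusted p = 0.000419), though not by library size alone (0.07, adjusted p = 0.265). Its 3 h value of 0.18 (adjusted p = 0.0156) did not pass without 0 h replicate 1 (adjusted p = 0.0689), 0 h replicate 2 (0.0552), 3 h replicate 5 (0.062) or 3 h replicate 7 (0.0569), and was -0.02 by library size alone. Nor did PPP1CA pass at 3 h with upper-quartile scaling (0.03, adjusted p = 0.657) or with a filter at 1 CPM (0.14, adjusted p = 0.0523).

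Of the 9 genes for kinases that phosphorylate glycogen synthase, 6 were higher and 1 was lower at 3 h, and 7 were higher and 1 was lower at 6 h. Those that passed are 77.8% and 88.9% of the 9, against 66.3% and 70.8% of all genes. GSK3A, one of the kinases that CHIR99021 inhibits, was at 46.9, 45.3 and 50.1 CPM at 0 h, 61.5, 54.7 and 60.4 CPM at 3 h, and 80.3, 75.0 and 72.5 CPM at 6 h. Its log2 fold change was 0.31 at 3 h (adjusted p = 0.000497), lost by library size alone (0.11, adjusted p = 0.126), and 0.68 at 6 h (adjusted p = 2.28e-07). GSK3B did not pass at 3 h (0.14, adjusted p = 0.0928), where it passed without 0 h replicate 2 (0.20, adjusted p = 0.0356) and was -0.01 with upper-quartile scaling and -0.06 by library size alone. At 6 h GSK3B was at -0.19 (adjusted p = 0.0302), a call lost without 0 h replicate 1 or 2 or without any of the 6 h replicates (adjusted p between 0.0635 and 0.142). PRKAB1 and PRKAB2, the beta subunits of the AMP-activated kinase, which bind glycogen, rose by 0.98 (adjusted p = 4.37e-10) and 0.68 (adjusted p = 3.2e-05) at 3 h. At 6 h they were 0.49 (adjusted p = 3.26e-07) and 0.37 (adjusted p = 0.00354) above 0 h, the latter lost by library size alone (0.14, adjusted p = 0.221).

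PGM1 has paralogs that did change. PGM2L1, which makes glucose 1,6-bisphosphate, was at 3.72, 3.90 and 3.06 CPM at 0 h, 1.01, 1.84 and 1.39 CPM at 3 h, and 0.872, 0.876 and 0.831 CPM at 6 h. It fell by 1.33 at 3 h (adjusted p = 9.26e-06) and by 2.05 at 6 h (adjusted p = 2.57e-07), and every treated library was below every untreated one. From 3 h to 6 h it fell by 0.72 (adjusted p = 0.0145), which did not pass without 3 h replicate 6 (-0.48, adjusted p = 0.0868) or without 6 h replicate 11 (-0.70, adjusted p = 0.0515). PGM2 fell by 0.27 at 3 h (adjusted p = 0.000314) and was 0.41 above 0 h at 6 h (adjusted p = 5.01e-06), a rise of 0.68 between the times (adjusted p = 2.81e-07).

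Genes that use UDP-glucose for other ends than glycogen had some of the largest rises in the wider list. UGDH, which oxidises it to UDP-glucuronate, was at 31.2 ± 0.837 CPM at 0 h, 50.1 ± 0.316 CPM at 3 h and 67.4 ± 2.77 CPM at 6 h, a log2 fold change of 0.69 (adjusted p = 2.91e-08) and 1.11 (adjusted p = 1.99e-10). UGGT1, a folding sensor that glucosylates misfolded glycoproteins, rose by 0.37 (adjusted p = 0.000275), lost by library size alone (0.17, adjusted p = 0.0529), and by 0.92 (adjusted p = 3.41e-08). ALG5, which makes the glucose donor for protein N-glycosylation, rose by 0.65 (adjusted p = 2.55e-07) and 0.85 (adjusted p = 1.22e-08). SLC35D1, a carrier of UDP sugars, rose by 0.72 at 3 h (adjusted p = 4.35e-06) and was 0.40 above 0 h at 6 h (adjusted p = 0.000787), the latter lost by library size alone (0.16, adjusted p = 0.101). GALT, of galactose metabolism, fell by 0.56 (adjusted p = 4.74e-06) and 0.42 (adjusted p = 5.59e-05). UGCG, which makes glucosylceramide, did not pass at 3 h (-0.04, adjusted p = 0.594), where it passed with upper-quartile scaling (-0.19, adjusted p = 0.00518) and by library size alone (-0.24, adjusted p = 0.00127), and fell by 0.41 at 6 h (adjusted p = 1.49e-05). All 9 genes of this group were tested, with 4 higher and 3 lower at each time, which is 77.8% against 66.3% of all genes at 3 h and 70.8% at 6 h.

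Among genes of glucose entry and glucose 6-phosphate, 3 were higher and 5 lower of 9 tested at each time, which is 88.9% against 66.3% of all genes at 3 h and 70.8% at 6 h. GPI, which interconverts glucose 6-phosphate and fructose 6-phosphate, rose by 0.29 at 3 h (adjusted p = 0.000286), lost by library size alone (0.09, adjusted p = 0.107), and by 0.71 at 6 h (adjusted p = 3.31e-08). HK1, a hexokinase, fell by 0.52 (adjusted p = 4.27e-07) and 0.38 (adjusted p = 7.6e-06). SLC37A4, which carries glucose 6-phosphate into the endoplasmic reticulum, fell by 0.48 (adjusted p = 1.03e-06) and 0.61 (adjusted p = 7.46e-08). HK2, another hexokinase, and SLC2A1, a glucose carrier, were added after their values had been seen. HK2 rose by 0.58 (adjusted p = 7.88e-07) and 0.36 (adjusted p = 7.84e-05), opposite to HK1, and SLC2A1 rose by 0.21 (adjusted p = 0.00157) and 0.33 (adjusted p = 3.23e-05). By library size alone HK2 did not pass at 6 h (0.12, adjusted p = 0.0633) and SLC2A1 did not pass at 3 h (0.01, adjusted p = 0.835) or 6 h (0.09, adjusted p = 0.0575). With upper-quartile scaling SLC2A1 did not pass at 3 h (0.06, adjusted p = 0.248).

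**Figure D4:**
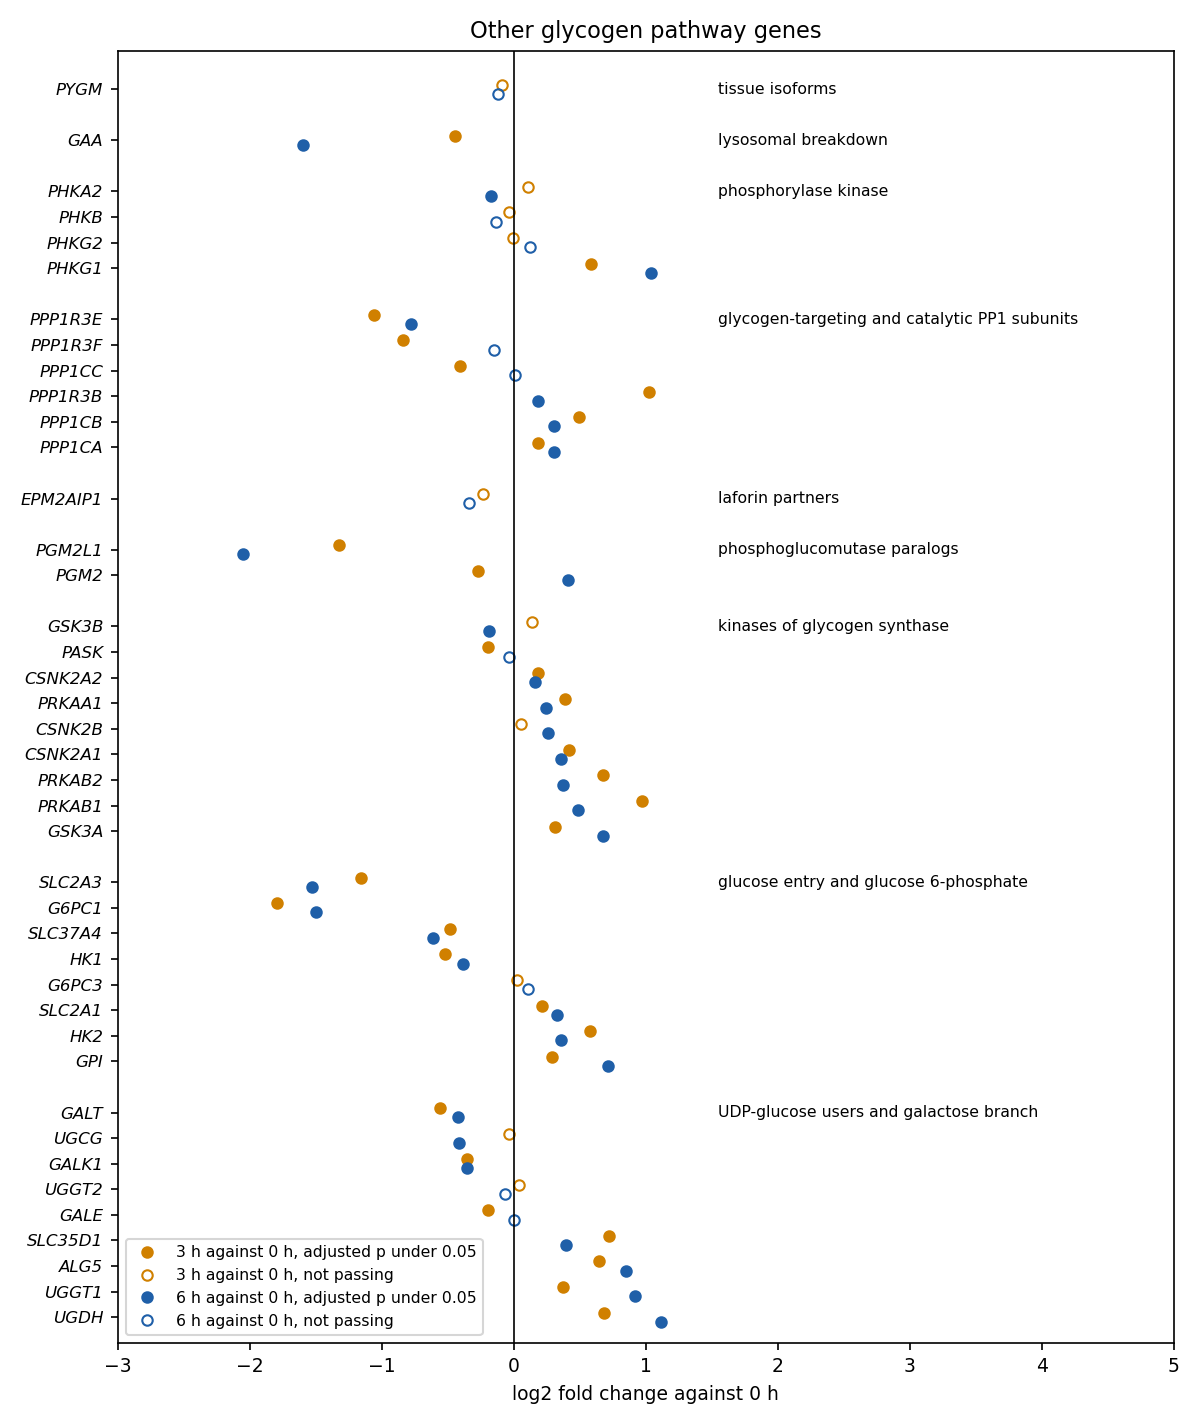
Log2 fold change against 0 h (horizontal axis) of 41 of the 43 tested genes of the wider list, grouped by role, at 3 h and 6 h. Filled points have an adjusted p under 0.05 and open points do not. Within most groups, points lie on both sides of 0.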

How the data were processed

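RNA was extracted from Ramos cultures on spin columns and made into Illumina libraries, per the labels' protocols. The submitters' processing notes name GSNAP (2015-12-31), HTSeq 0.6.0, limma 3.30.0 and the build hg19. The strand setting of the counting is not given in the sources used here. The values used are the authors' deposited raw counts of reads per Ensembl gene, not normalized. The 5 HTSeq summary entries were left out of library sizes and tests. Reads in genes were 67.6% to 70.9% of all entries per library.

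Symbols (51997 of 60234 identifiers) come from a separate reference list of gene names. Exon lengths and overlaps come from GENCODE v29, which is on GRCh38, so no gene coordinates are given except those of the RefSeq promoter stretches. Low genes were removed with filterByExpr at its defaults (a count of 10, a total of 15). The main test was edgeR 4.0.16 (R 4.3.3), with TMM scaling, 1 mean per group, all 9 libraries, a robust quasi-likelihood fit with 6 residual degrees of freedom, and Benjamini-Hochberg adjustment. SEs were derived from the F statistic. The procedure was tested on simulated data. Figures were drawn with matplotlib 3.10.9 (Python 3.11.15). Other fits tried were limma-voom (limma 3.58.1), DESeq2 1.42.0, other scalings and filters, a minimum fold of 1.2, the compared groups alone, and leaving out each library.

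The 9 genes and all lists were chosen with earlier results of these data known. All 9 were named whatever their values. Of the wider list, PPP1CA, PPP1CB, PPP1CC, GSK3A, GSK3B, GYS2, GYG2 and PYGM were always to be named, and for each comparison and direction up to 5 further genes with an adjusted p under 0.05, a mean of at least 1 CPM and the largest change. Some genes of the wider list are counted but not reported here by name. Genes most alike were sought for GYS1 and for the genes with the largest rise and fall at 6 h, which are PYGL and GYS1.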

Additional observations from a re-analysis of the deposited data

Results flagged for a closer look

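For 5 of the 9 genes the change at 6 h differed from the change at 3 h, by the edgeR test of 6 h against 3 h with Benjamini-Hochberg adjustment over all genes. All of these share the untreated libraries, which cancel in this difference. The 6 h change minus the 3 h change, in log2, was 1.13 for PYGL (adjusted p = 1.37e-07), 0.60 for GBE1 (adjusted p = 4.71e-05), 0.23 for GYG1 (adjusted p = 0.00238), 0.22 for GYS1 (adjusted p = 0.00594) and -0.31 for PYGB (adjusted p = 0.00013). All 3 libraries of 6 h lay on the same side of all 3 libraries of 3 h for each of these 5 genes. Over all genes, 43.4% passed the same test. The test for a single outlying value within a group was not run on groups of 3 libraries.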

How the results depend on the processing

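Over the 9 genes, 3 comparisons and 18 alternatives, 463 results kept their direction and side of the threshold, 6 turned sign without passing in either fit (GYG1 at 3 h and PGM1 at 6 h), 11 no longer passed, 3 newly passed and 3 reversed with a passing value. Upper-quartile scaling moved the median log2 fold change of all genes to -0.17 at 3 h and -0.13 at 6 h, and library size alone to -0.22 at both. The share of higher calls among all genes fell with it, from 49.5% to 36% and 31.8% at 3 h and from 50.5% to 39.2% and 32.8% at 6 h. By library size alone, GYG1 at 3 h (-0.11), PGM1 at 6 h (-0.22) and PPP1CC at 6 h (-0.23) reversed with a passing value. With upper-quartile scaling PGM1 (-0.13) and PPP1CC (-0.14) did so at 6 h. PPP1CA at 3 h (-0.018, adjusted p = 0.784), RUVBL2 at 3 h (-0.023, adjusted p = 0.715) and PPP1R3B at 6 h (-0.050, adjusted p = 0.574) turned sign by library size alone and no longer passed. By library size alone, 4 of the 9 genes were lower at 3 h, and of the wider list 10 were higher at 3 h, 9 were higher at 6 h and 20 were lower at 6 h. When a change of more than 1.2-fold had to be shown, 3 of the 9 genes were higher at 3 h, and from 3 h to 6 h 2 were higher and 0 lower. Of the wider list, 11 were then higher at 3 h, 11 higher at 6 h, and from 3 h to 6 h 6 were higher and 3 lower, with 2504 of all genes passing in place of 6871. That alternative asks for a larger change, so fewer genes pass by construction. No paired analysis was made, because the labels used here state no pairing. Their replicate numbers (1 to 3, 5 to 7 and 9 to 11) differ between groups and do not tell whether libraries were paired. Depth limits GYS2, GYG2 and PYGM.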
